A study of Mus musculus with 20 samples.

Results

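The miR-181 family of the mouse comprises the microRNAs (miRNAs) miR-181a, miR-181b, miR-181c and miR-181d. Its members here are all rows of the miRNA count tables whose name begins with 1 of these 4 names, with every arm and gene copy, which gave 10 of the 1886 rows. In the tables they are mmu-miR-181a-5p, mmu-miR-181b-5p, mmu-miR-181c-5p and mmu-miR-181d-5p, and, from the opposite arm, mmu-miR-181a-1-3p, mmu-miR-181a-2-3p, mmu-miR-181b-1-3p, mmu-miR-181b-2-3p, mmu-miR-181c-3p and mmu-miR-181d-3p. The 4 strands from the 5p arm of the hairpin (miR-181a-5p to miR-181d-5p) together held far more reads than the 6 strands from the 3p arm and are called guides. The small RNA libraries were made from primary cultures of midbrain neurons, prepared from the ventral mesencephalon of E12.5 C57Bl6/J mouse embryos and grown without serum. The 4 groups were cells collected on day 1 in vitro (DIV1 control), on day 1 with 10 ng/ml of GDNF in the medium (DIV1 GDNF), on day 5 (DIV5 control) and on day 5 with 10 ng/ml of GDNF (DIV5 GDNF), each with 5 libraries. GDNF is the glial cell line-derived neurotrophic factor, a survival factor of dopaminergic midbrain neurons, and all groups shared strain, stage, medium and coating. The labels do not say whether the replicates are separate animals or cultures, so all p-values measure only the spread between these libraries.

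A miRNA hairpin is cut into a duplex, of which 1 strand, the guide, is usually kept in an Argonaute protein while the opposite strand, the passenger, is degraded. The guide finds its target messenger RNAs mainly through its seed, the short stretch after its first base, so miRNAs with a common seed form a family with overlapping targets. The miR-181 family is abundant in brain and in lymphocytes, where miR-181a is known for tuning the sensitivity of the T cell receptor, and in neurons it has been studied for its effects on neurite growth, synaptic proteins and mitochondria.

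All 10 members matched a mature sequence of RefSeq (GRCm38.p6), and the 4 guides are shown because they share a seed but differ behind it. Capitals mark the seed, bases 2 to 8 from the 5′ end.
miR-181a-5p: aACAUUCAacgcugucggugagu
miR-181b-5p: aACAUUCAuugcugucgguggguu
miR-181c-5p: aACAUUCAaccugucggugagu
miR-181d-5p: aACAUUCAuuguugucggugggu
Among the 1679 mature miRNAs of that table, exactly these 4 carried this seed. Counted from the 5′ end, miR-181b-5p differs from miR-181a-5p by A9U, C10U and A21G and is 1 base longer. miR-181d-5p differs from miR-181b-5p by the single substitution C12U and is 1 base shorter. miR-181c-5p equals miR-181a-5p without the base at position 11. The guides thus fall into a pair a and c and a pair b and d by sequence, whereas the genes are paired a with b and c with d.

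The opposite strands have other seeds and are shown because they tell the gene copies apart, which the guides of miR-181a and miR-181b cannot do.
miR-181a-1-3p: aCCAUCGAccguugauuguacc
miR-181a-2-3p: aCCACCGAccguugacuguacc
miR-181c-3p: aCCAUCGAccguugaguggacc
miR-181b-1-3p: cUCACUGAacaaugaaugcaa
miR-181b-2-3p: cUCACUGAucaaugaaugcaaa
miR-181d-3p: cCCACCGGgggaugaauguca
miR-181a-2-3p differs from miR-181a-1-3p by U5C, inside the seed, and by U16C. miR-181a-1-3p and miR-181c-3p share 1 seed, and miR-181b-1-3p and miR-181b-2-3p share another.

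The 6 genes lie in 3 pairs on 3 chromosomes (GRCm38, also called mm10). Mir181a-1 (chr1:137966455-137966541) and Mir181b-1 (chr1:137966639-137966718) are on the plus strand, 97 bases apart, in an intron of the noncoding gene Gm4258 and over an exon of the noncoding gene A430106G13Rik. Mir181a-2 (chr2:38852735-38852810) and Mir181b-2 (chr2:38853830-38853918) are also on the plus strand, 1019 bases apart, on the strand opposite to the protein-coding gene Nr6a1 and outside its exons. Mir181b-2 also lies inside an exon of Gm44144, again on the opposite strand. Mir181c (chr8:84178873-84178961) and Mir181d (chr8:84178716-84178787) are on the minus strand, 85 bases apart, within an intron of Nanos3 on the same strand. The same miR-181a-5p is cut from both of the following hairpins, shown with the mature arms in capitals, and so its count does not tell the loci apart.
Mir181a-1: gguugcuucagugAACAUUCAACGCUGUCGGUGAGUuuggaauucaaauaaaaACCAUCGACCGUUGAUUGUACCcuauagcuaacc
Mir181a-2: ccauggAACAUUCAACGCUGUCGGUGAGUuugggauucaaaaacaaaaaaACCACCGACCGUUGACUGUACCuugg

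The libraries held 420118 to 4324505 reads assigned to miRNAs, between 686793 and 1557885 in DIV1 control, 420118 and 1761023 in DIV1 GDNF, 1061619 and 4324505 in DIV5 control, and 1781030 and 3983722 in DIV5 GDNF. Levels are CPM, counts per 1e6 reads scaled with TMM factors, and 542 of 1581 detected miRNAs had enough reads to be tested. In the cultures, 9 of 9 tested miRNAs of a neuron list rose from DIV1 to DIV5 without GDNF and 7 of 9 with GDNF (edgeR, adjusted p below 0.05). Of all tested miRNAs, 31.4% rose without and 25.1% with GDNF. Also on the neuron list but not tested, miR-138-5p was at 0 in all 20 libraries and miR-129-5p at 0 in 8, with at most 25 reads. DIV5 control libraries 1 and 5 stood apart: 43 of the 542 tested miRNAs were at least 2-fold higher in both than in the mean of the other 3 libraries. None of the 10 members was among these 43, and the same fold of the members lay between 0.515 and 1.44.

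The family held between 18.7% and 23.9% of all miRNA reads in the 20 libraries. In DIV1 control the share was 21.2% ± 1.28 (SD, n = 5), in DIV1 GDNF 22.1% ± 1.72, in DIV5 control 20.6% ± 1.36 and in DIV5 GDNF 21.2% ± 1.74. The ranges of all 4 groups overlapped, and the group means differed by about the SD within a group. Without miR-6239 in the total, the means were 23.6% in DIV1 control and 23.8% in DIV1 GDNF. In DIV5 control and DIV5 GDNF they were at most 21.45% and 21.86% under any alternative tried, so the days then lay further apart. For comparison, miR-9-5p, which is enriched in neural progenitors, held 7.18% ± 1.03 over the 20 libraries, and the let-7 family with miR-98 held 5.38% ± 1.30. No test was made of the summed share, because the members were chosen with these data known.

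All 10 members had reads in every library, and all 10 were tested. miR-181a-5p had the highest count of all miRNAs in 20 of 20 libraries, with 74014 to 706913 reads. miR-181b-5p ranked between 6 and 20, miR-181c-5p between 9 and 21, and miR-181d-5p between 28 and 38. Among the opposite strands, miR-181c-3p was ranked 35 to 51, miR-181a-2-3p 39 to 79 and miR-181a-1-3p 52 to 85, so these 3 passengers were themselves among the more abundant miRNAs. The other 3 were rare: miR-181b-1-3p had 20 to 114 reads, miR-181d-3p 3 to 46 and miR-181b-2-3p 3 to 31. Their fold changes had the largest SEs of the family. The 6 opposite strands together made up 5.04% of the family's reads in DIV1 control and 3.69% in DIV5 control.

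Between DIV1 and DIV5 the family's total share overlapped, with all miRNA reads as the total, while its make-up changed. Without GDNF, 7 of the 10 members fell and 1 rose in edgeR's quasi-likelihood test at a Benjamini-Hochberg adjusted p below 0.05, with a median log2 fold change over the members of -0.63 against 0.10 over all tested miRNAs. Of all tested miRNAs 60.7% were called in that comparison, 31.4% higher and 29.3% lower, so most miRNAs differed between the days. With GDNF, 6 members fell and 1 rose, with a median of -0.39 against 0.00 over all tested miRNAs. There 52.4% of all tested miRNAs were called, 25.1% higher and 27.3% lower. These comparisons use different libraries from each other, but each shares its groups with a GDNF comparison below.

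**Figure D1:**
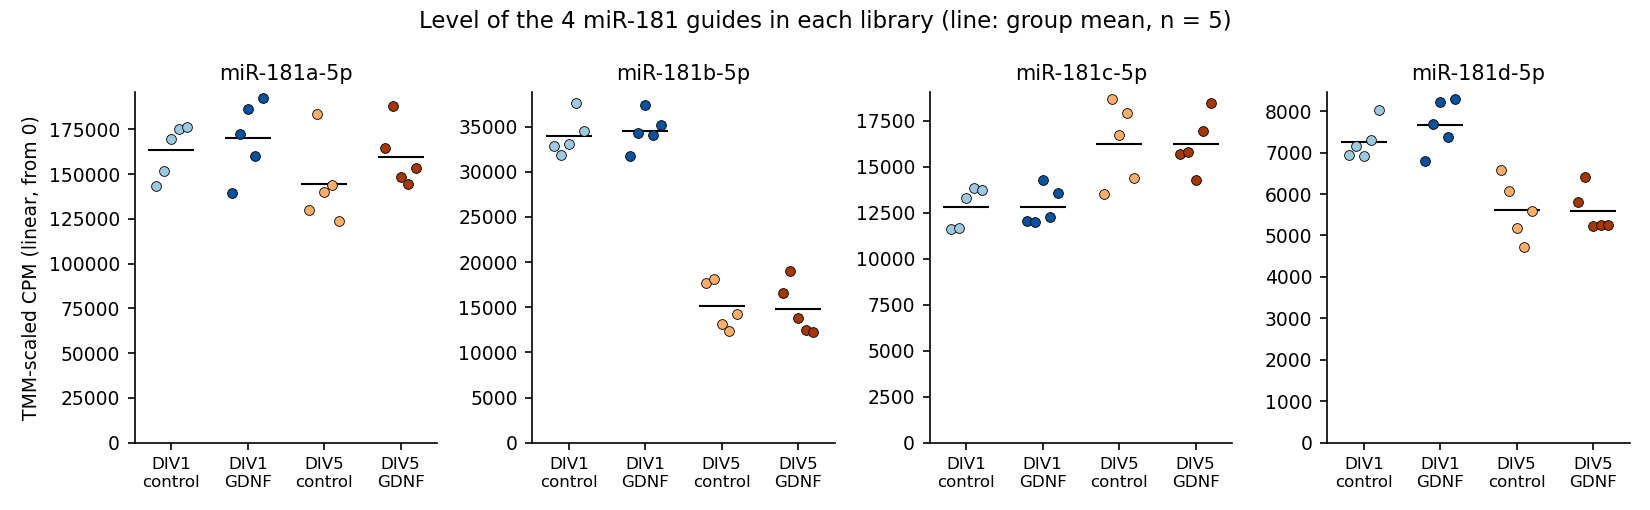
TMM-scaled CPM (linear axis from 0) of the 4 guides in each library by group, with points for libraries and a line for the group mean of 5. miR-181b-5p at DIV5 lies below every DIV1 library, miR-181c-5p tends to lie above, miR-181d-5p lies below, and miR-181a-5p overlaps throughout.

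miR-181a-5p, the family's main guide, stayed the most abundant miRNA on both days. Its level was 143500, 151700, 169400, 174900 and 176400 CPM in DIV1 control libraries 1 to 5 and 130100, 183500, 139800, 143700 and 124000 CPM in DIV5 control libraries 1 to 5. With GDNF it was 139200, 172500, 186300, 159900 and 192400 CPM at DIV1 and 164300, 188000, 148300, 144700 and 153600 CPM at DIV5. The days overlapped both without and with GDNF, with DIV5 control library 2 the highest DIV5 control library. The log2 fold change of DIV5 against DIV1 was -0.18 ± 0.12 (SE, n = 5 each; edgeR adjusted p = 0.187) without GDNF and -0.09 ± 0.12 (edgeR adjusted p = 0.515) with GDNF. Scaled by library totals only, both values changed sign to 0.06. Without DIV5 control library 2 the value without GDNF was -0.26 (edgeR adjusted p = 0.0429), and with the replicate number as a block it was -0.19 (edgeR adjusted p = 0.029), against a range of 0.029 to 0.96 over all alternatives. The block does not pair the days. It takes the spread between replicate numbers out of the SE (0.069 in place of 0.115), so its p for a day comparison can be too small.

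miR-181b-5p, made from the same 2 loci as miR-181a-5p, fell by more than a factor of 2. Its level was 32860, 31910, 33120, 37570 and 34520 CPM in DIV1 control and 17640, 18090, 13130, 12340 and 14250 CPM in DIV5 control. With GDNF it was 31780, 34280, 37410, 34070 and 35170 CPM at DIV1 and 16600, 18970, 13810, 12470 and 12310 CPM at DIV5. All 10 DIV5 libraries lay below all 10 DIV1 libraries, and on DIV5 libraries 1 and 2 of each group were higher than libraries 3 to 5. The log2 fold change was -1.17 ± 0.13 without GDNF, a 2.25-fold fall (edgeR adjusted p = 1.93e-07), and -1.22 ± 0.13 with GDNF, a 2.33-fold fall (edgeR adjusted p = 1.36e-07). It kept its call in 31 of 31 alternatives of each comparison, with values from -1.37 to -0.87 and from -1.39 to -0.96.

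miR-181c-5p was the only member that rose. Its level was 11600, 11640, 13300, 13860 and 13750 CPM in DIV1 control and 13520, 18700, 16700, 17900 and 14390 CPM in DIV5 control. With GDNF it was 12060, 11970, 14270, 12280 and 13570 CPM at DIV1 and 15690, 15820, 14300, 16930 and 18450 CPM at DIV5. The groups without GDNF overlapped through DIV5 control library 1, the lowest of its group, while those with GDNF did not overlap, with library 3 of each closest. The log2 fold change was 0.34 ± 0.10 in both comparisons (edgeR adjusted p = 0.00737 without and 0.00896 with GDNF), a 1.27-fold rise. With DIV5 libraries 1 and 2 alone the value with GDNF was 0.30 and not called (edgeR adjusted p = 0.052, with 6.42e-05 to 0.052 over all alternatives).

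miR-181d-5p, from the hairpin beside miR-181c, went the other way. Its level was 6932, 7154, 6909, 7297 and 8018 CPM in DIV1 control and 6571, 6074, 5179, 4725 and 5582 CPM in DIV5 control. With GDNF it was 6806, 7698, 8217, 7368 and 8283 CPM at DIV1 and 5817, 6413, 5237, 5260 and 5263 CPM at DIV5. In CPM, every DIV5 library was below every DIV1 library. As a percent of all miRNA reads the days overlapped without GDNF, at 0.622% to 0.754% in DIV1 control and 0.526% to 0.758% in DIV5 control. With GDNF they did not, at 0.675% to 0.758% and 0.530% to 0.617%. The log2 fold change was -0.37 ± 0.10 without GDNF (edgeR adjusted p = 0.00298) and -0.46 ± 0.10 with GDNF (edgeR adjusted p = 0.000633). Scaled by library totals only, the fall without GDNF was -0.12 and not called (edgeR adjusted p = 0.269, with 0.000157 to 0.432 over all alternatives), and with DIV5 libraries 1 and 2 alone it was -0.14 (edgeR adjusted p = 0.373).

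Over the whole family, 7 of 10 members did not overlap in TMM-scaled CPM between the days without GDNF and 6 of 10 with GDNF, where 39.3% and 36.9% of all tested miRNAs did not overlap. The scale of a fold change matters for the small changes: with library totals only, the median of all tested miRNAs shifted by 0.26 without and 0.15 with GDNF, and the calls split into 228 higher and 111 lower, and 166 and 117, in place of 170 and 159, and 136 and 148. The falls of miR-181b-5p and miR-181a-2-3p and the rise of miR-181c-5p kept their direction and call under that scaling.

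Marker miRNAs of other cells moved with the day as well. For comparison, 29.3% of all tested miRNAs fell and 31.4% rose without GDNF, and 27.3% fell and 25.1% rose with GDNF. A list of white blood cell and microglia miRNAs summed to 65.1 to 107 CPM in DIV1 control and 13.7 to 46.4 CPM in DIV5 control, where 2 of 5 were tested and 1 fell, and to 72.8 to 115 and 13.6 to 38.6 CPM with GDNF, where both fell. Of its untested members, miR-142a-3p was at 0 in 4 libraries, miR-150-5p in 3 and miR-223-3p in 7. Vessel and mesenchyme miRNAs summed to 2818 to 4176 CPM and then 487 to 1403 CPM without GDNF, and to 2764 to 3464 and then 221 to 2014 CPM with GDNF, with 3 of 5 tested fallen in each comparison, and miR-126a-5p was at 0 in all libraries. Erythroid miRNAs, with 1 of 4 tested, summed to 15.5 to 51.7 and 4.15 to 17.8 CPM without GDNF and to 10.4 to 50.5 and 2.01 to 21.0 CPM with GDNF, and that miRNA fell in both. Neural progenitor miRNAs summed to 121600 to 141400 and 74560 to 105600 CPM without GDNF and to 128600 to 142000 and 71660 to 111200 CPM with GDNF. Of the 7, 4 fell and 2 rose without GDNF, and 4 fell and 0 rose with GDNF. Glial miRNAs, 3 of 5 tested, summed to 3189 to 3885 and 2847 to 3290 CPM without and 3372 to 4031 and 2890 to 3303 CPM with GDNF, with 1 up and 1 down without and 1 down with GDNF. The untested glial miRNAs miR-219a-5p and miR-338-3p were at 0 in 20 and 13 libraries. The part of other cells in the changes of the miR-181 members was not tested. In cultures measured in bulk, fewer cells of a type and less RNA per cell cannot be told apart.

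Ratios between members inside a library do not depend on how libraries are scaled, and they were used to describe how the members moved against each other. The 6 pairs of guides and the 2 pairs of gene-copy strands were compared in 4 comparisons, 32 exact permutation tests in all, and 12 of them had an adjusted p below 0.05. All 12 were comparisons of days, 6 of 8 without GDNF and 6 of 8 with GDNF. The 6 guide ratios are built from 4 guides and are not independent of each other. Ratios between other miRNAs were not tested. Since 60.7% of all tested miRNAs were called between the days without GDNF and 52.4% with GDNF, the 12 do not set the family apart from other miRNAs. With 5 libraries against 5 the smallest two-sided p is 0.00794, which became 0.0231 after adjustment over the 32 tests.

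miR-181a-5p and miR-181b-5p come from the same 2 gene pairs, and their balance shifted towards miR-181a-5p. There were 4.37, 4.75, 5.12, 4.65 and 5.11 reads of miR-181a-5p per read of miR-181b-5p in DIV1 control libraries 1 to 5 and 7.38, 10.1, 10.7, 11.6 and 8.70 in DIV5 control. With GDNF the ratio was 4.38, 5.03, 4.98, 4.69 and 5.47 at DIV1 and 9.90, 9.91, 10.7, 11.6 and 12.5 at DIV5. The days did not overlap, and DIV5 control libraries 1 and 5 were the lowest on DIV5. The change was 1.00 on the log2 scale without GDNF (2.00-fold) and 1.15 with GDNF (2.22-fold), each with an exact permutation p of 0.00794 (adjusted p = 0.0231).

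miR-181c-5p and miR-181d-5p, which share 1 locus, also moved apart. There were 1.67, 1.63, 1.92, 1.90 and 1.72 reads of miR-181c-5p per read of miR-181d-5p in DIV1 control and 2.06, 3.08, 3.22, 3.79 and 2.58 in DIV5 control. With GDNF there were 1.77, 1.56, 1.74, 1.67 and 1.64 at DIV1 and 2.70, 2.47, 2.73, 3.22 and 3.51 at DIV5. The lowest DIV5 value, in DIV5 control library 1, was still above every DIV1 value. The change was 0.71 on the log2 scale without GDNF (1.64-fold) and 0.80 with GDNF (1.73-fold), again with an exact permutation p of 0.00794 (adjusted p = 0.0231).

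**Figure D2:**
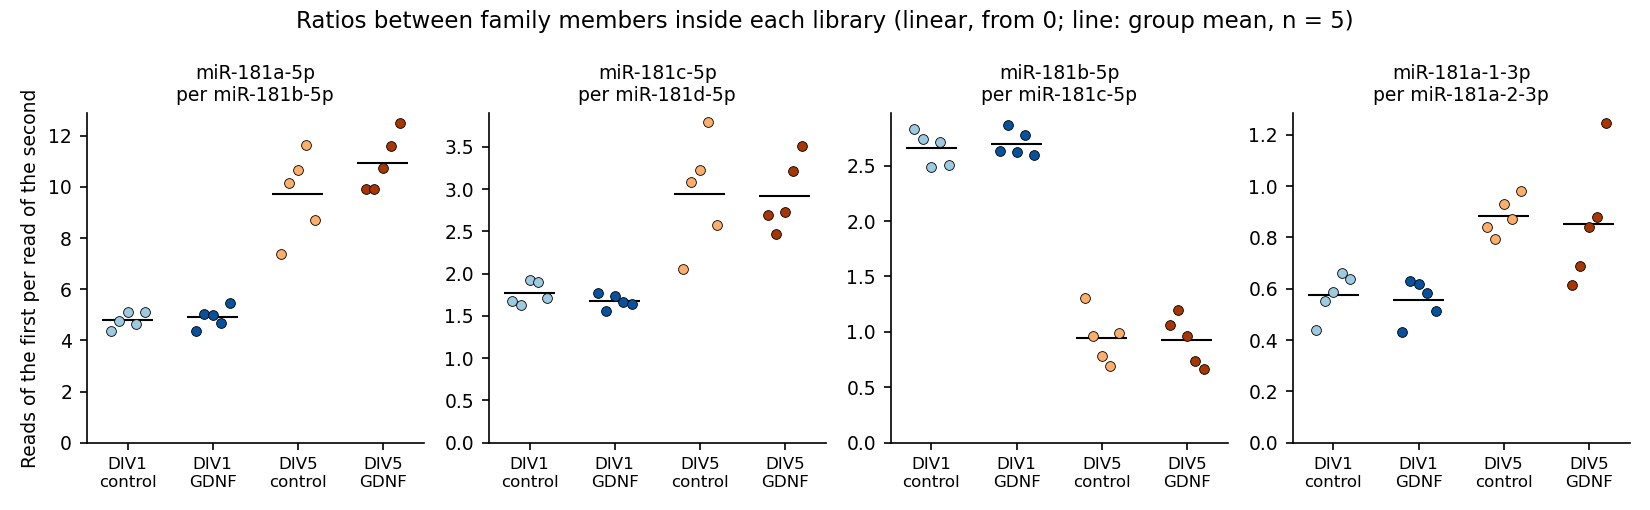
Ratios of reads between 2 family members inside each library (linear axes from 0), with points for libraries and a line for the mean of 5. The ratios of a to b and of c to d lie higher in every DIV5 library than in any DIV1 library, and the ratio of b to c lies lower.

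The widest divergence was between miR-181b-5p and miR-181c-5p, which come from different chromosomes. At DIV1 miR-181b-5p had more reads than miR-181c-5p in 10 of 10 libraries, 2.66 ± 0.15 reads per read without GDNF and 2.70 ± 0.12 with GDNF (SD, n = 5). At DIV5 it had more reads in 1 of 5 control and 2 of 5 GDNF libraries, and the ratio was 0.948 ± 0.236 and 0.925 ± 0.222. The change was -1.52 and -1.58 on the log2 scale, a 2.87-fold and a 2.98-fold fall (exact permutation p = 0.00794, adjusted p = 0.0231 in both).

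The remaining pairs of guides differed in how far they moved, and no test compared the pairs with each other. The ratio of miR-181b-5p to miR-181d-5p fell from 4.69 ± 0.33 to 2.67 ± 0.18 without GDNF and from 4.51 ± 0.17 to 2.63 ± 0.28 with GDNF, by 0.81 and 0.78 on the log2 scale (exact permutation p = 0.00794, adjusted p = 0.0231). The ratio of miR-181a-5p to miR-181c-5p fell from 12.7 ± 0.24 to 8.89 ± 0.79 without GDNF (-0.52 on the log2 scale, exact permutation p = 0.00794, adjusted p = 0.0231). With GDNF it went from 13.2 ± 1.14 to 9.92 ± 1.48, groups that overlapped (-0.43, exact permutation p = 0.0159, adjusted p = 0.0423). That last call was lost on leaving out any 1 of 8 of its 10 libraries, namely DIV1 GDNF libraries 2 to 5 and DIV5 GDNF libraries 1, 3, 4 and 5, with values from -0.45 to -0.37 and an adjusted p of 0.0781 to 0.0847, against 0.0423 to 0.0879 over all alternatives. The ratio of miR-181a-5p to miR-181d-5p was 22.5 ± 1.69 and 25.9 ± 4.76 without GDNF (exact permutation p = 0.175, adjusted p = 0.365) and rose from 22.1 ± 1.07 to 28.5 ± 0.74 with GDNF (exact permutation p = 0.00794, adjusted p = 0.0231).

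With only 3 DIV5 libraries a group, the smallest exact p is 0.0357 and no ratio passed the adjustment. The sizes held: with DIV5 libraries 3 to 5 alone, the log2 change of miR-181a-5p to miR-181b-5p was 1.10 without and 1.24 with GDNF, and that of miR-181b-5p to miR-181c-5p -1.71 and -1.79. Without DIV5 control libraries 1 and 5 they were 1.17 and -1.72 without GDNF.

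**Figure D3:**
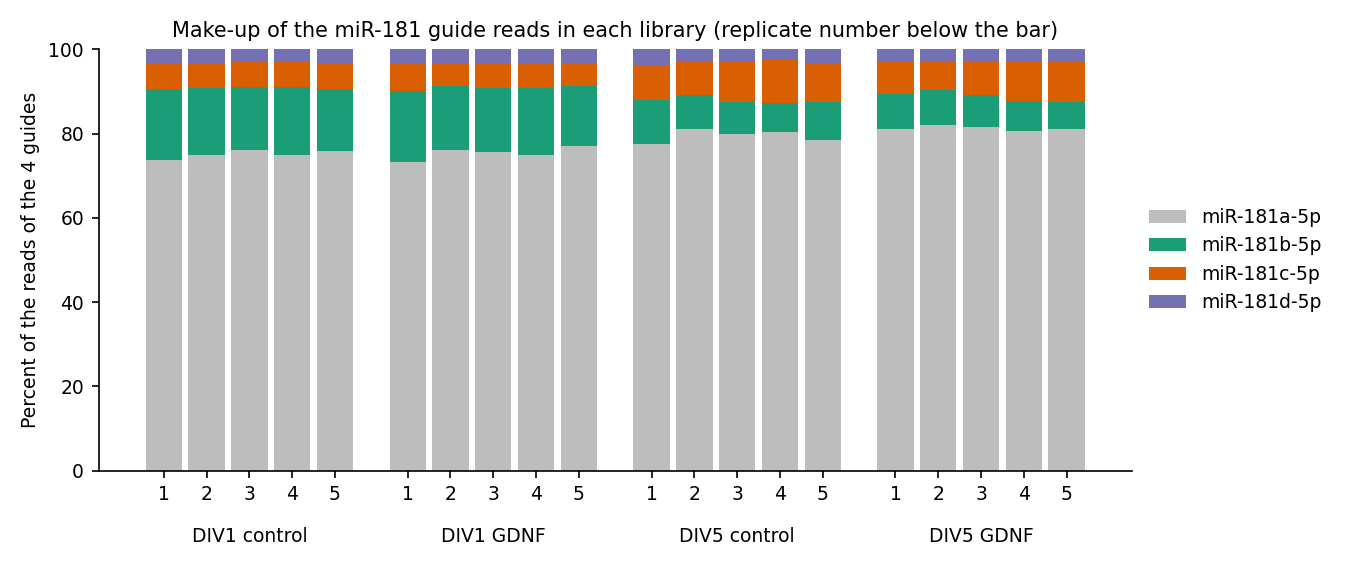
Percent of the reads of the 4 guides (linear axis from 0 to 100) held by each guide, with 1 stacked bar per library and the replicate number under it. The part of miR-181b-5p is smaller and that of miR-181c-5p larger in every DIV5 bar than in any DIV1 bar.

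As a share of the reads of the 4 guides, miR-181b-5p made up 15.7% ± 0.86 in DIV1 control, 15.4% ± 0.99 in DIV1 GDNF, 8.39% ± 1.41 in DIV5 control and 7.51% ± 0.78 in DIV5 GDNF. The part of miR-181a-5p was 75.1% ± 0.96, 75.4% ± 1.44, 79.5% ± 1.47 and 81.3% ± 0.53 in the same order. miR-181c-5p made up 5.90% ± 0.09, 5.72% ± 0.41, 9.0% ± 0.84 and 8.34% ± 1.20, and miR-181d-5p 3.35% ± 0.22, 3.42% ± 0.11, 3.15% ± 0.56 and 2.85% ± 0.06. Since all 4 share the seed, the pool of reads with that seed remained mostly miR-181a-5p in every library, between 73.3% and 82.0%.

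Among the opposite strands, miR-181a-2-3p, from the hairpin on chromosome 2, fell most clearly. Its level was 4702, 4450, 4098, 4060 and 4004 CPM in DIV1 control and 1456, 2320, 2075, 1978 and 1546 CPM in DIV5 control. With GDNF it was 4200, 3999, 4345, 4232 and 4651 CPM at DIV1 and 2397, 3072, 2394, 2051 and 1698 CPM at DIV5. Every DIV5 library was below every DIV1 library, and the 2 DIV5 control libraries that stand apart, 1 and 5, were the lowest of all. The log2 fold change was -1.19 ± 0.14 without GDNF (edgeR adjusted p = 6.13e-07) and -0.88 ± 0.14 with GDNF (edgeR adjusted p = 2.33e-05), called in 31 of 31 alternatives of each.

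miR-181a-1-3p, the matching strand from the copy on chromosome 1, changed less. It ranged from 2066 to 2684 CPM in DIV1 control and 1226 to 1931 CPM in DIV5 control, which did not overlap (log2 fold change -0.56 ± 0.14, edgeR adjusted p = 0.00128). With GDNF it ranged from 1809 to 2685 CPM and from 1475 to 2114 CPM, which overlapped, and did not pass the test (-0.32 ± 0.14, edgeR adjusted p = 0.0522). That value passed without DIV1 GDNF library 1 (-0.35, edgeR adjusted p = 0.0308), among miRNAs with a mean of at least 10 CPM (-0.30, edgeR adjusted p = 0.0485), without DIV5 control libraries 1 and 5 (-0.27, edgeR adjusted p = 0.047) and with the replicate number as a block (-0.32, edgeR adjusted p = 0.0062), with 0.0062 to 0.927 over all alternatives. As the block does not pair the days, its p here can be too small. The ratio of miR-181a-1-3p to miR-181a-2-3p was 0.439, 0.552, 0.589, 0.661 and 0.639 in DIV1 control and 0.842, 0.793, 0.931, 0.873 and 0.982 in DIV5 control. These groups did not overlap, and the ratio rose 1.55-fold (log2 change 0.63, exact permutation p = 0.00794, adjusted p = 0.0231). With GDNF the mean went from 0.555 ± 0.083 to 0.854 ± 0.244 and the groups overlapped (log2 change 0.59, exact permutation p = 0.0238, adjusted p = 0.0586). Without DIV5 GDNF library 1 that change was 0.70 with an adjusted p of 0.0423, against 0.0423 to 0.117 over all alternatives. The matching ratio of miR-181b-1-3p to miR-181b-2-3p, from the same gene pairs but with few reads, did not rise. Its log2 change was -0.39 without GDNF (exact permutation p = 0.175, adjusted p = 0.365) and -0.004 with GDNF (exact permutation p = 0.984, adjusted p = 0.984).

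miR-181c-3p fell although miR-181c-5p, the other arm of its hairpin, rose. It was at 5270, 4405, 4438, 4884 and 4481 CPM in DIV1 control and 2792, 3453, 3825, 3455 and 3164 CPM in DIV5 control. With GDNF it was at 4150, 4212, 4994, 4364 and 4360 CPM at DIV1 and 3677, 3614, 3563, 3357 and 3451 CPM at DIV5. In CPM, no DIV5 library reached the lowest DIV1 library. As a percent of all miRNA reads the days overlapped without GDNF, at 0.400% to 0.502% in DIV1 control and 0.322% to 0.447% in DIV5 control. With GDNF they did not, at 0.399% to 0.455% and 0.347% to 0.393%. The log2 fold change was -0.49 ± 0.09 without GDNF (edgeR adjusted p = 0.000126) and -0.32 ± 0.09 with GDNF (edgeR adjusted p = 0.00591). With library totals only, the second was -0.17 and not called (edgeR adjusted p = 0.133, with 0.00417 to 0.873 over all alternatives).

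The 3 rare opposite strands were measured with few reads. miR-181b-1-3p went from 49.0 ± 14.7 to 18.9 ± 5.53 CPM without GDNF (log2 fold change -1.36 ± 0.23, edgeR adjusted p = 5.11e-05) and from 48.3 ± 6.27 to 25.5 ± 1.81 CPM with GDNF (-0.92 ± 0.23, edgeR adjusted p = 0.00215), with no overlap in either. miR-181b-2-3p went from 11.8 ± 4.11 to 5.83 ± 0.76 CPM (-0.98 ± 0.26, edgeR adjusted p = 0.00278) and from 12.4 ± 2.65 to 6.76 ± 1.53 CPM (-0.93 ± 0.25, edgeR adjusted p = 0.00382), the latter with overlap. Both strands of miR-181b thus fell with their guide. miR-181d-3p was at 11.7 ± 2.28 and 7.37 ± 4.38 CPM without GDNF and 11.2 ± 7.31 and 9.03 ± 3.16 CPM with GDNF, and neither difference passed the test (edgeR adjusted p = 0.161 and 0.727). Without DIV5 control library 1, which had 14.6 CPM, its difference without GDNF was -1.06 (edgeR adjusted p = 0.0253, with 0.0171 to 0.992 over all alternatives).

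**Figure D4:**
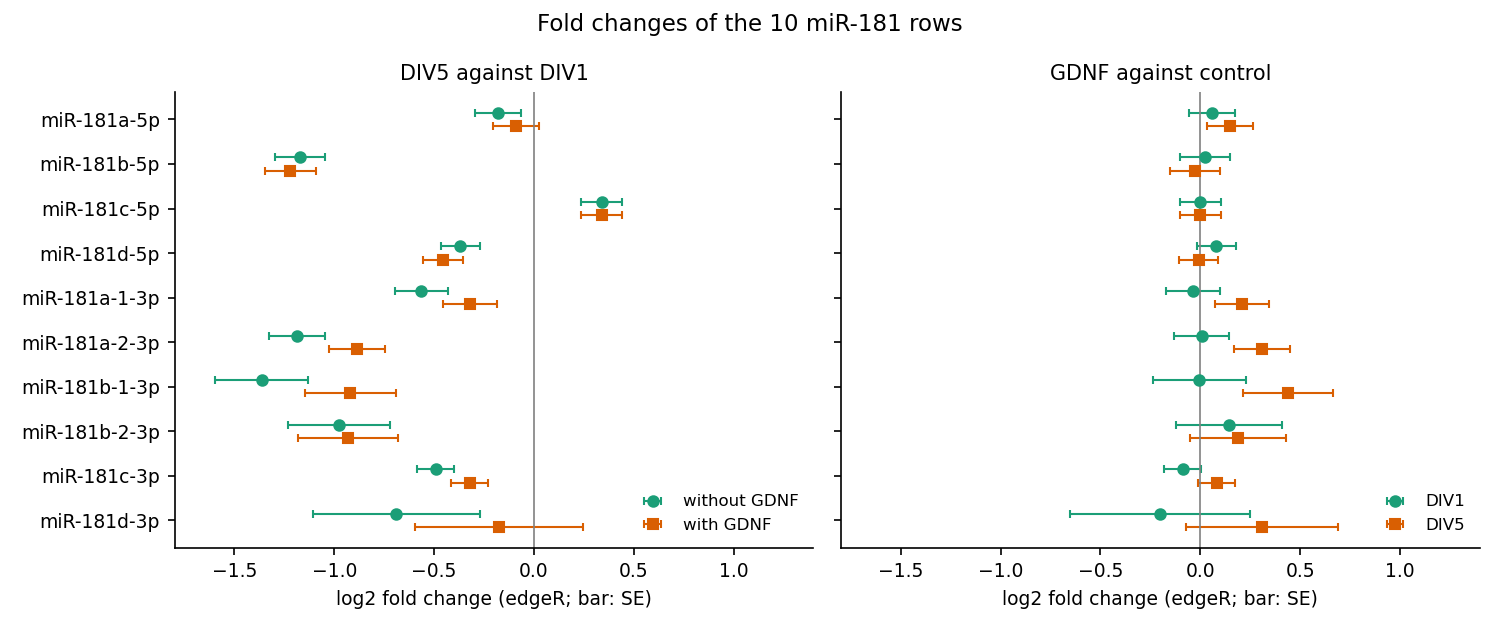
Log2 fold changes of the 10 members from edgeR with their SE as bars, DIV5 against DIV1 on the left and GDNF against control on the right, with zero as a grey line. On the left miR-181b-5p, miR-181a-2-3p and miR-181b-1-3p lie farthest below zero and miR-181c-5p lies above it, while on the right no member passed the test.

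The balance of the 2 arms of a hairpin was compared for 167 arm pairs, with limma on the log2 ratio of 3p to 5p reads. Over the 20 libraries the family's hairpins differed widely in this balance. The minor arm of miR-181c made up 21.9% of the reads of both arms, more than in 122 of the 167 pairs, where the median was 8.42%. For miR-181b-2-3p it was 0.0393%, less than in all but 2 pairs. miR-181b-1-3p and miR-181d-3p stood at 0.147% each, miR-181a-1-3p at 1.29% and miR-181a-2-3p at 1.94%. The guides of miR-181a and miR-181b have 1 row for both copies, so these 4 shares can differ from those of a single hairpin by an unknown amount. For the same reason, a change of these 4 ratios cannot tell a shift between arms from a shift between gene copies.

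Of the 6 arm ratios of the family, 2 fell with the day and none rose, without and with GDNF alike. Of these 2, only that of miR-181c sets the arms of 1 hairpin against each other. The other, of miR-181a-2-3p, uses the miR-181a-5p row, which does not separate the gene copies. Of all pairs, 34.7% were called without GDNF (15.6% with the 3p arm higher and 19.2% lower) and 18.6% with GDNF (9.58% higher and 8.98% lower). The 3p strand of miR-181c numbered 45.4, 37.8, 33.4, 35.2 and 32.6 reads per 100 reads of miR-181c-5p in DIV1 control and 20.7, 18.5, 22.9, 19.3 and 21.98 in DIV5 control. With GDNF it numbered 34.4, 35.2, 35.0, 35.5 and 32.1 at DIV1 and 23.4, 22.9, 24.9, 19.8 and 18.7 at DIV5. All DIV5 libraries were below all DIV1 libraries, and DIV1 control library 1 was the highest. The log2 difference was -0.83 ± 0.14 without GDNF (limma adjusted p = 0.00019) and -0.66 ± 0.14 with GDNF (limma adjusted p = 0.00184).

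**Figure D5:**
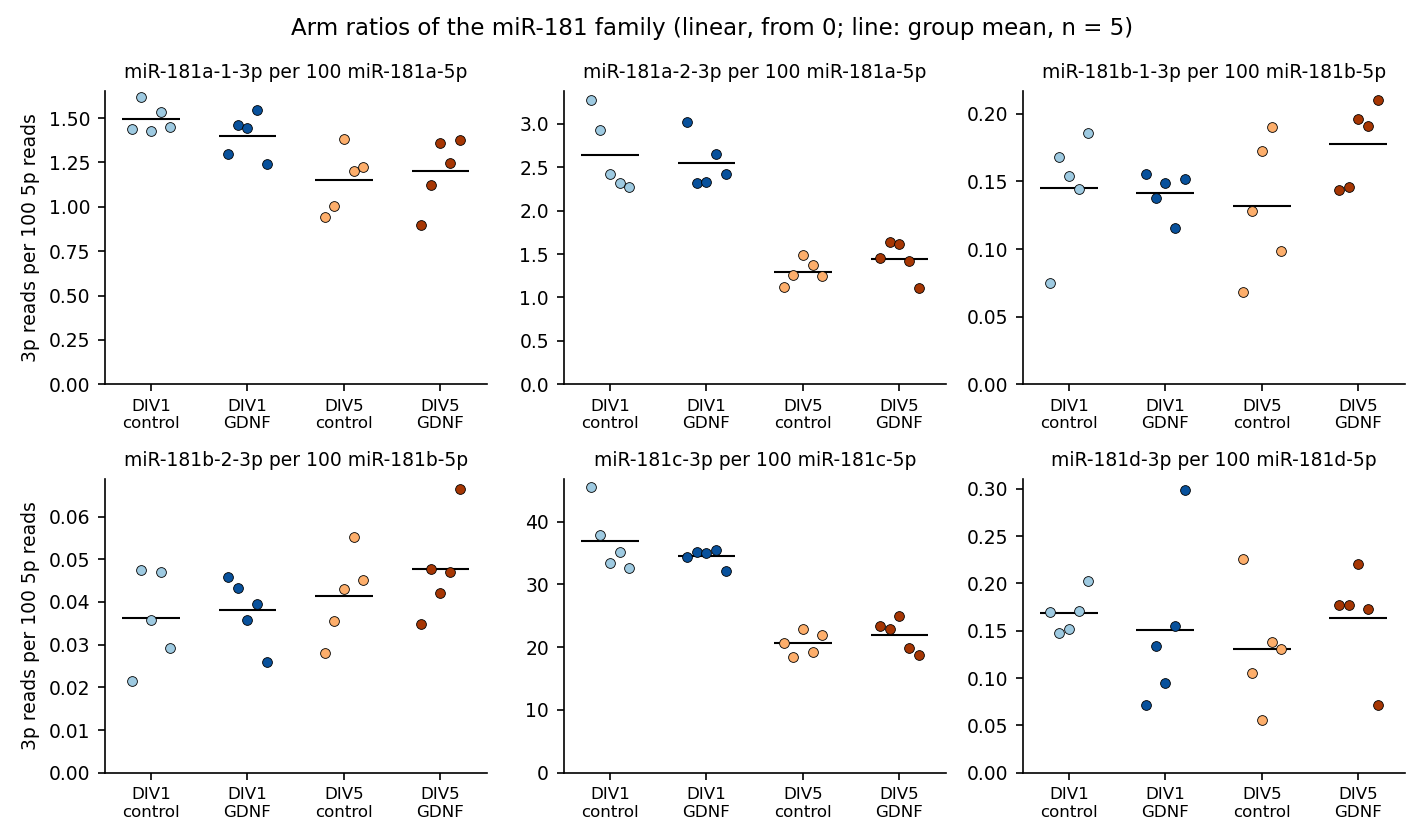
Reads of each 3p strand per 100 reads of the 5p strand of the same name in each library (linear axes from 0), with points for libraries and a line for the mean of 5. For miR-181a-2 and miR-181c every DIV5 library lies below every DIV1 library, whereas for miR-181b-1, miR-181b-2 and miR-181d the days overlap.

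miR-181a-2-3p numbered 3.28, 2.93, 2.42, 2.32 and 2.27 reads per 100 reads of miR-181a-5p in DIV1 control and 1.12, 1.27, 1.48, 1.38 and 1.25 in DIV5 control. With GDNF it numbered 3.02, 2.32, 2.33, 2.65 and 2.42 at DIV1 and 1.46, 1.63, 1.61, 1.42 and 1.11 at DIV5. The days did not overlap. The log2 difference was -1.02 ± 0.16 without GDNF (limma adjusted p = 9.15e-05) and -0.82 ± 0.16 with GDNF (limma adjusted p = 0.000896). For miR-181a-1-3p the ratio to miR-181a-5p was 1.49 ± 0.08 and 1.15 ± 0.18 without GDNF, groups that did not overlap but did not pass the test (-0.39 ± 0.15, limma adjusted p = 0.0562). The ratio with GDNF was 1.398 ± 0.12 and 1.20 ± 0.20, with overlap (-0.23 ± 0.15, limma adjusted p = 0.33), and it passed under no alternative. The value without GDNF passed without DIV5 control library 3 (-0.46, limma adjusted p = 0.0356), without DIV5 GDNF library 1 (-0.39, limma adjusted p = 0.0408), with both arms at a mean of at least 10 CPM (-0.39, limma adjusted p = 0.0377) and with the replicate block (-0.39, limma adjusted p = 0.04), with 0.0356 to 0.171 over all alternatives. Here too the block does not pair the days, and its p can be too small. For miR-181b the ratio of the strands of both copies to the guide did not pass the test: miR-181b-1-3p numbered 0.146 ± 0.043 and 0.132 ± 0.051 reads per 100 without GDNF (limma adjusted p = 0.621), and miR-181b-2-3p 0.036 ± 0.011 and 0.041 ± 0.010 (limma adjusted p = 0.49). With GDNF they numbered 0.142 ± 0.016 and 0.178 ± 0.031 (log2 difference 0.32, against -0.18 without GDNF; limma adjusted p = 0.493), and 0.038 ± 0.008 and 0.048 ± 0.012 (limma adjusted p = 0.438).

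No member passed the test for GDNF at either day. At DIV1 edgeR called 0 of 542 miRNAs (0% of those tested, 7 at an unadjusted p below 0.05, and 0 called by DESeq2 and by limma voom), and the log2 fold changes of the 10 members lay between -0.20 and 0.14, with the groups overlapping for all 10. At DIV5 it called 1 of 542 (0.185%, 88 at an unadjusted p below 0.05, 29 called by DESeq2 and 1 by limma voom), and the members lay between -0.02 and 0.44. None of the 10 was called in any of 31 alternatives of either comparison. miR-181a-5p changed by 0.06 ± 0.12 at DIV1 and 0.15 ± 0.12 at DIV5 (edgeR adjusted p = 1 and 0.613), so its level with GDNF was 1.04 and 1.11 times that of the control.

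The member with the smallest p for GDNF was miR-181a-2-3p at DIV5, at 1456 to 2320 CPM in control and 1698 to 3072 CPM with GDNF. The groups overlapped, and the log2 fold change of 0.31 ± 0.14 did not pass (edgeR adjusted p = 0.257, 0.0371 unadjusted). miR-181b-1-3p was at 11.8, 22.7, 22.6, 23.3 and 14.0 CPM in DIV5 control and 23.6, 27.5, 27.0, 23.7 and 25.8 CPM in DIV5 GDNF. These groups did not overlap, as for 0.923% of all tested miRNAs, and the difference of 0.44 ± 0.23 did not pass the test either (edgeR adjusted p = 0.347, 0.0656 unadjusted). The lowest controls were libraries 1 and 5, and the log2 value was between 0.14 and 0.55 over the alternatives. Within the same-numbered DIV5 libraries, miR-181a-5p, miR-181a-1-3p, miR-181a-2-3p and miR-181b-1-3p were each higher with GDNF in 5 of 5 pairs in TMM-scaled CPM, as were 7.38% of all tested miRNAs, and no member was lower in all 5. As a share of the library total the same 4 were higher in 3, 3, 3 and 4 of 5 pairs. With the replicate number as a block, miR-181a-5p (log2 0.16, edgeR adjusted p = 0.289), miR-181a-2-3p (0.30, edgeR adjusted p = 0.154) and miR-181b-1-3p (0.47, edgeR adjusted p = 0.289) did not pass, and no adjusted p of these 3 was below 0.0995 in any alternative. No difference between the GDNF effects at the 2 days passed for any member (log2 -0.09 to 0.51), where edgeR called 0 of 542 miRNAs (0%, 50 at an unadjusted p below 0.05, 0 by DESeq2 and 0 by limma voom).

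Nor did GDNF move the balance within the family past the threshold. The 8 ratios between members differed by -0.09 to 0.05 on the log2 scale at DIV1 and by -0.09 to 0.30 at DIV5, with a smallest exact permutation p of 0.238 and 0.183. Of the 167 arm ratios limma called 0 at each day, with 6 and 21 at an unadjusted p below 0.05, and none of the family's 6 was among the calls. For the ratio of miR-181a-5p to miR-181b-5p the group means were 4.80 ± 0.32 in control and 4.91 ± 0.41 with GDNF at DIV1, and 9.70 ± 1.68 in control and 10.9 ± 1.12 with GDNF at DIV5. The GDNF comparisons share their groups with the day comparisons, so these values are the same libraries seen from the other side.

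The 4 guides were each compared with 431 miRNAs of at least 10 CPM by the root mean square difference of their log2 levels over the 20 libraries, each miRNA centred on its own mean. A value of 0 would be an identical pattern, and the points share libraries and scaling. Closest to miR-181a-5p were miR-21a-5p (0.110), miR-320-3p (0.132) and miR-27b-3p (0.140), and to miR-181d-5p miR-130a-3p (0.130), miR-872-5p (0.141) and miR-484 (0.156). Closest to miR-181b-5p were miR-99b-3p (0.138), miR-93-5p (0.139) and miR-25-3p (0.186), and to miR-181c-5p miR-488-3p (0.151), miR-135b-5p (0.155) and miR-30d-5p (0.160). Inside the family the distances were larger than these: 0.203 between a and d, 0.274 between a and c, 0.410 between b and d, 0.420 between c and d, 0.562 between a and b, and 0.808 between b and c. Each guide was nearer to its 3 closest miRNAs outside the family than to any other guide. Those 3 were picked from 431, so this order says little about the family. The median distance to the 431 was 0.531 for a, 0.761 for b, 0.531 for c and 0.540 for d. The distances a to d, a to c, b to d and c to d lay below the medians of both their guides. That of a to b lay between the medians of a and b, and that of b to c above both of its medians. This describes these 20 libraries with no test.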

How the data were processed

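From small RNA sequencing the authors deposited a table of unnormalized read counts, by mature miRNA name, for each of 20 libraries. Per the submitters' processing notes, cutadapt 1.8.1, STAR 2.4.1d and HTSeq were used with genome build mm10. The annotation, the use of strand and the treatment of reads that map to several copies are not given in the sources used here. miR-181a-5p and miR-181b-5p each have 2 identical copies, and miR-181d-5p differs from miR-181b-5p by 1 substitution, so reads could be shared or split between them. Reads without a feature, 9.51% to 22.6% per library, were left out of totals and tests. At DIV5, libraries 1 and 2 of both groups had 17.7% to 19.5% of them and 1061619 to 1907937 miRNA reads. DIV5 libraries 3 to 5 had 9.51% to 13.3% and 2969524 to 4324505. The DIV1 libraries had 16.5% to 22.6% and at most 1761023. The subsets of DIV5 libraries match this split, and its part in the differences between the days was not tested.

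Counts were fitted with edgeR 4.0.16 in R 4.3.3: filterByExpr, TMM scaling, and 1 quasi-likelihood fit of all 20 libraries with a coefficient per group. Calls needed an adjusted p (Benjamini-Hochberg, over 542 miRNAs) below 0.05, and the SE is the size of the log2 fold change divided by the square root of F. Ratios between members, log2 of counts with a pseudocount of 0.5, were compared with two-sided exact permutation tests (scipy 1.17.1), and 3p to 5p ratios of 167 pairs with limma 3.58.1. Sequences are from RefSeq and gene positions from GENCODE vM21 on GRCm38. Groups follow the sample titles. The family and all lists were chosen with earlier results of these data known, and every member is named. Other miRNAs are named by the rule of the 3 closest to each guide, by the shared seed, or as listed markers and context.

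Reads carry no molecular identifiers and so may repeat a molecule. Over 40 pairs of libraries of a group, chi-square per degree of freedom was at least 10.3, so no library was near-identical to another. Same-numbered libraries of control and GDNF deviated together at DIV5 (correlations of 0.217 to 0.639 over 439 miRNAs). However, DIV5 control libraries 1 and 5 did not correlate most with the GDNF library of their own number. The numbers were used as pairs only in the counts of DIV5 pairs and in the replicate block. The main fits and the permutation tests took no account of them. At DIV1 the correlations were 0.076 to 0.655, and across days -0.166 to 0.178. The block used the numbers within each day, DIV1 included, and not across days. It therefore pairs GDNF with control but not DIV5 with DIV1. Between the days it leaves the spread between replicate numbers out of the SE, so those p-values can be too small. Alternatives were other scalings, filters, pseudocounts and denominators, DESeq2 1.42.0, limma voom, a replicate block, subsets of DIV5 libraries and leaving out each library.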

Additional observations from a re-analysis of the deposited data

Results flagged for a closer look

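In 100 groups of 5 libraries checked for a library far from the others, 2 stood out, where chance gives about 1 in 20. miR-181b-2-3p was at 7.80 CPM in DIV1 GDNF library 5, below the 12.9 to 14.4 CPM of the other 4 libraries of that group. miR-181c-3p was at 4994 CPM in DIV1 GDNF library 3, above the 4150 to 4364 CPM of the others.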

How the results depend on the processing

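With the replicate number as a block within each day, miR-181a-5p without GDNF (log2 -0.19, edgeR adjusted p = 0.029) and miR-181a-1-3p with GDNF (-0.32, edgeR adjusted p = 0.0062) passed between the days. So did the arm ratio of miR-181a-1-3p without GDNF (limma adjusted p = 0.04). The block does not pair the days, so these day p-values can be too small. For GDNF at DIV5 edgeR called 3 miRNAs in place of 1 with the block. The block changed no other call of the fitted models, and the permutation tests of ratios were not run with a block. That count for GDNF at DIV5 was 13 with a mean of at least 10 CPM, 29 with DESeq2, 0 without DIV5 control libraries 1 and 5, 2 with DIV5 libraries 1 and 2 only, 2 with DIV5 libraries 3 to 5 only, 0 in a fit of the groups compared only, and 0 to 43 on leaving out 1 library. The largest, 43, came without DIV5 control library 2, with 37 without library 4 and 32 without library 3. None of these calls was a member. The difference of the GDNF effects gave 1 call with DIV5 libraries 3 to 5 only and 0 to 1 on leaving out 1 library (1 without DIV5 control library 2). With no filter on low counts, 4 members in place of 8 were called between the days without GDNF and 3 in place of 7 with GDNF. Those lost were miR-181a-1-3p, miR-181b-2-3p, miR-181c-3p and miR-181d-5p without GDNF, and miR-181b-1-3p, miR-181b-2-3p, miR-181c-3p and miR-181d-5p with GDNF. The median of all miRNAs then shifted by 0.22 and 0.27, and the calls split into 208 higher and 130 lower, and 185 and 103. With DIV5 libraries 1 and 2 only, 4 members were called with GDNF: miR-181b-2-3p (-0.85), miR-181c-3p (-0.28) and miR-181c-5p (0.30) missed the threshold (adjusted p = 0.093, 0.0659 and 0.052). Under the same subset miR-181d-5p without GDNF was -0.14 and lost its call (adjusted p = 0.373). Ratios between members past the threshold fell from 6 to 0 without GDNF, and from 6 to 0 with GDNF, both with DIV5 libraries 3 to 5 only and without DIV5 control libraries 1 and 5. The groups with GDNF lose no library in the second case, and their smallest adjusted p rose to 0.0508 through the adjustment over all 32 tests. On leaving out 1 library, 5 to 6 passed with GDNF and 6 without. The family's share of reads was 23.6% in DIV1 control and 23.8% in DIV1 GDNF without miR-6239. No alternative gave a mean above 21.45% in DIV5 control or 21.86% in DIV5 GDNF. With reads without a feature in the total, the share was 16.9%, 17.9%, 17.6% and 18.1% in DIV1 control, DIV1 GDNF, DIV5 control and DIV5 GDNF. Values near zero changed sign. miR-181a-5p between the days was 0.060 and 0.058 (without and with GDNF) with library totals only, 0.028 and 0.177 without a filter, 0.049 with DIV5 libraries 1 and 2 only (with GDNF), and -0.126 to 0.006 on leaving out 1 library (with GDNF). For GDNF at DIV1 it was -0.009 to 0.099 on leaving out 1 library, and the difference of the GDNF effects was -0.003 with library totals only. miR-181d-3p was 0.004 without and 0.078 with GDNF with DIV5 libraries 1 and 2 only, 0.072 without a filter (with GDNF) and -0.31 to 0.16 on leaving out 1 library (with GDNF). The ratio of miR-181b-1-3p to miR-181b-2-3p with GDNF was 0.027 with a pseudocount of 1, 0.051 with DIV5 libraries 3 to 5 only and -0.10 to 0.15 on leaving out 1 library. The arm ratio of miR-181b-1-3p without GDNF was 0.22 without DIV5 control libraries 1 and 5 and -0.399 to 0.038 on leaving out 1 library, and that of miR-181d-3p with GDNF was -0.02 to 0.50. The cause of these changes was not tested. Over 53 values of single members and 1422 recomputations, 1340 kept their direction and side of the threshold. The least certain values are those of miR-181b-1-3p, miR-181b-2-3p and miR-181d-3p, with as few as 3 reads in a library.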
